A study of Mus musculus with 10 samples.

Results

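The genes described here are Dock3, Rasd2, Tmem132b, Foxd1, Nol4 and Srrm4os, 6 of the 38962 genes in the count table. They were chosen by their measured values in these libraries, low counts in young femurs and a level at least 4-fold higher in aged femurs, so their age contrast is given below as a description, with no test. Femurs of 5 aged male C57BL/6J mice (22 months, from the National Institute on Aging colony) were set against femurs of 5 young male C57BL/6J mice (2 months, from the Jackson Laboratory). None carried a transgene or received a treatment that the sources name, and supplier and age cannot be told apart. The bones were flushed of marrow and pulverized, and the RNA was sequenced as 1 library per mouse after ribosomal RNA was depleted and polyadenylated RNA selected. In such bulk RNA, fewer cells of a type and less RNA per cell cannot be told apart.

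All 6 genes are best known outside bone, and most of them from the nervous system. Dock3 encodes a guanine nucleotide exchange factor that activates the small GTPase Rac and is known for its part in axon outgrowth. Rasd2 (also called Rhes) encodes a Ras-like GTPase of the striatum, and Tmem132b a single-pass membrane protein whose function is little known. Foxd1 is a forkhead transcription factor of the kidney stroma and the developing retina. Nol4 encodes a nucleolar protein found mainly in brain and testis, and Srrm4os is a long noncoding RNA transcribed from the strand opposite to Srrm4, the splicing factor that has neurons include microexons.

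Libraries held 31788232 to 45075335 counts in aged mice and 33447009 to 40395050 counts in young mice. Levels are CPM, that is counts scaled to a common library size by TMM (trimmed mean of M values) and given per 1000000, and fold changes are aged over young. After a filter on low counts 22088 genes were tested with edgeR (quasi-likelihood, p-values adjusted by Benjamini-Hochberg). At an adjusted p of 0.05 or less 812 of them were higher in aged bone (3.68%) and 798 lower (3.61%). When libraries were scaled by total counts alone, 285 were higher and 917 lower. The alternative tests DESeq2 and limma-voom called 1545 and 721 genes higher and 1283 and 802 lower, and their counts below are read beside these. How many of all tested genes stood at an unadjusted p under 0.05 was not counted. Counts at that level in a list below therefore show neither an excess nor a lack. Osteoblast markers were abundant in this tissue labelled bone, with a summed level of 18438 to 45814 CPM in aged and 43109 to 91789 CPM in young libraries, and 5 of the 10 were lower in aged bone. Markers of skeletal muscle were also abundant, at 33513 to 92668 CPM in aged and 19967 to 58829 CPM in young libraries. By contrast, the 15 neuron markers summed to only 9.54 to 12.4 CPM in aged and 9.06 to 11 CPM in young libraries, 8 of them were too low to be tested, and of the other 7 Syp alone was higher in aged bone.

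The upstream sequences of Dock3, Foxd1 and Rasd2 are shown because these genes, all chosen for a higher level in aged bone, start in different surroundings of CG dinucleotides. Each is the 250 bases before the start of the gene in RefSeq (build GRCm38.p6), read 5′ to 3′ on the strand of the gene, with the GC box GGGCGG or its complement CCGCCC in capitals.
Dock3 (chr9:107231910-107232159, minus strand): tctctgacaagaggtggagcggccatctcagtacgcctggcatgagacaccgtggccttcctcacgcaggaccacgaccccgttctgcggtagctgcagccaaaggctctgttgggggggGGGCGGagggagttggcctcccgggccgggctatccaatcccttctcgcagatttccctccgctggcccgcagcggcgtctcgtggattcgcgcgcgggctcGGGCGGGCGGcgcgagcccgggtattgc
Foxd1 (chr13:98353995-98354244, plus strand): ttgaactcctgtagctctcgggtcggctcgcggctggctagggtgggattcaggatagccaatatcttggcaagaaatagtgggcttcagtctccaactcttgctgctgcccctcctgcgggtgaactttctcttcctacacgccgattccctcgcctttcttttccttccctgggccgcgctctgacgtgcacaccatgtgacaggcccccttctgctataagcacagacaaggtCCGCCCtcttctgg
Rasd2 (chr8:75213694-75213943, plus strand): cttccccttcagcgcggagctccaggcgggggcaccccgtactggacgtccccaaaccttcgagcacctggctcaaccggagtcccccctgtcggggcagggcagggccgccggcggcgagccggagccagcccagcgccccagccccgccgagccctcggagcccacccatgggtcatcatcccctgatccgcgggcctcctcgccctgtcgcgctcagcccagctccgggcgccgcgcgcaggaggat

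The Rasd2 window held 27 CG dinucleotides and no GC box, the Dock3 window 26 CG dinucleotides and 3 GC boxes, 2 of which overlap. The Foxd1 window held 12 CG dinucleotides and 1 GC box. For Tmem132b, whose RefSeq start lies inside the span of the gene in the count table, the window held 1 GC box and 6 CG dinucleotides, the same number as the median over 32851 RefSeq promoters. GGGCGG on either strand was in 3 of the 4 windows and in 32.7% of all promoters of that length. GGACAG, one end of the site bound by the neuronal gene repressor REST, was in the Tmem132b window alone and in 18.7% of all promoters. Its other end CAGCACC, the E-box CACGTG, the cyclic AMP response element TGACGTCA, the forkhead motif TGTTTAC and the TATA box TATAAA were in 0 of the 4 windows on either strand, against 5.73%, 6.02%, 1.55%, 3.17% and 12.4% of all promoters. A match or its lack describes these letters only, and no window was read for Nol4 or Srrm4os.

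Dock3 (ENSMUSG00000039716.12) differed most between the ages. The gene spans chromosome 9 from 106892825 to 107231909 on GRCm38, with 55 blocks of exon. Its level was 4.36, 4.80, 4.25, 3.23 and 4.02 CPM in aged mice 1 to 5, against 0.487, 0.327, 0.0693, 0.251 and 0.307 CPM in young mice 1 to 5. The groups did not overlap, and the lowest aged mouse stood 6.63-fold above the highest young mouse. Dock3 averaged 4.13 ± 0.575 CPM in aged bone and 0.288 ± 0.151 CPM in young bone (SD, n = 5 each), a fold of 14.3 and a log2 fold change of 3.79 (SE 0.29). The aged values rest on 112 to 241 counts and the young values on few reads, from 2 counts in young mouse 3 to 19 in young mouse 1. Per kb, 9.71% of the tested genes were lower than Dock3 in aged bone, against 0.0724% in young bone, where it was near silent.

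Rasd2 (ENSMUSG00000034472.13, chromosome 8 from 75213944 to 75224113, 4 blocks of exon) reached the highest level of the 6 genes in CPM per kb at both ages, 6.18 in aged and 0.726 CPM per kb in young bone. It was read at 16.6, 16.5, 29.7, 12.4 and 22.8 CPM in aged mice 1 to 5, against 1.59, 1.81, 3.02, 1.46 and 3.66 CPM in young mice 1 to 5. Aged mouse 3 was highest and aged mouse 4 lowest, and every aged mouse was at least 3.4-fold above the highest young mouse. The means were 19.6 ± 6.76 CPM in aged and 2.31 ± 0.974 CPM in young bone (SD, n = 5 each), which is 8.50-fold, with a log2 fold change of 3.09 (SE 0.31). Rasd2 was not near silent in young bone. It had 530 to 902 counts in aged and 62 to 155 counts in young libraries, and per kb 73.6% of the tested genes were lower than it in aged bone, against 23.5% in young bone.

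Tmem132b (ENSMUSG00000070498.3, chromosome 5 from 125531774 to 125792583, 10 blocks of exon) had 4.86, 5.43, 9.91, 3.82 and 7.82 CPM in aged mice 1 to 5, against 1.23, 1.01, 1.59, 1.02 and 1.67 CPM in young mice 1 to 5. The aged mice spread 2.59-fold and the young mice 1.66-fold, without overlap between the ages. The membrane protein gene averaged 6.37 ± 2.46 CPM in aged and 1.31 ± 0.314 CPM in young bone (SD, n = 5 each), a fold of 4.88 and a log2 fold change of 2.28 (SE 0.26). Its counts were 163 to 309 in aged and 40 to 71 in young libraries.

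The forkhead gene Foxd1 (ENSMUSG00000078302.5, chromosome 13 from 98354242 to 98359305, 1 block of exon) sat at the edge of the choice, at 4.0-fold. It had 2.99, 3.14, 5.47, 5.60 and 5.47 CPM in aged mice 1 to 5, against 1.05, 1.03, 1.35, 1.0 and 1.23 CPM in young mice 1 to 5. Aged mice 1 and 2 were lower than the other 3, all aged mice were above all young mice, and the young mice were close together. The means were 4.53 ± 1.34 CPM in aged and 1.13 ± 0.150 CPM in young bone (SD, n = 5 each), with a log2 fold change of 2.00 (SE 0.22). The counts were 107 to 239 in aged and 39 to 52 in young libraries.

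Nol4 (ENSMUSG00000041923.15, chromosome 18 from 22693181 to 23041653, 16 blocks of exon) stood at 3.91, 4.06, 3.57, 1.69 and 3.44 CPM in aged mice 1 to 5, against 0.949, 0.554, 0.659, 0.397 and 0.542 CPM in young mice 1 to 5. Aged mouse 4 lay apart from the other aged mice, yet it was still 1.78-fold above the highest young mouse, the smallest such gap of the 6 genes. The nucleolar protein gene averaged 3.33 ± 0.954 CPM in aged and 0.620 ± 0.206 CPM in young bone (SD, n = 5 each), a fold of 5.38 and a log2 fold change of 2.43 (SE 0.28). Its counts were 72 to 204 in aged and 19 to 37 in young libraries.

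Srrm4os (ENSMUSG00000086219.7, chromosome 5 from 116438720 to 116465487, 4 blocks of exon) varied least among aged mice. It had 1.34, 1.59, 1.71, 1.36 and 1.29 CPM in aged mice 1 to 5, against 0.462, 0.403, 0.277, 0.230 and 0.330 CPM in young mice 1 to 5. The aged mice lay within 1.32-fold of each other and did not overlap with the young mice. The noncoding RNA averaged 1.46 ± 0.181 CPM in aged and 0.340 ± 0.0936 CPM in young bone (SD, n = 5 each), a fold of 4.28 and a log2 fold change of 2.09 (SE 0.23). Counts were 45 to 80 in aged and 8 to 18 in young libraries.

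**Figure D1:**
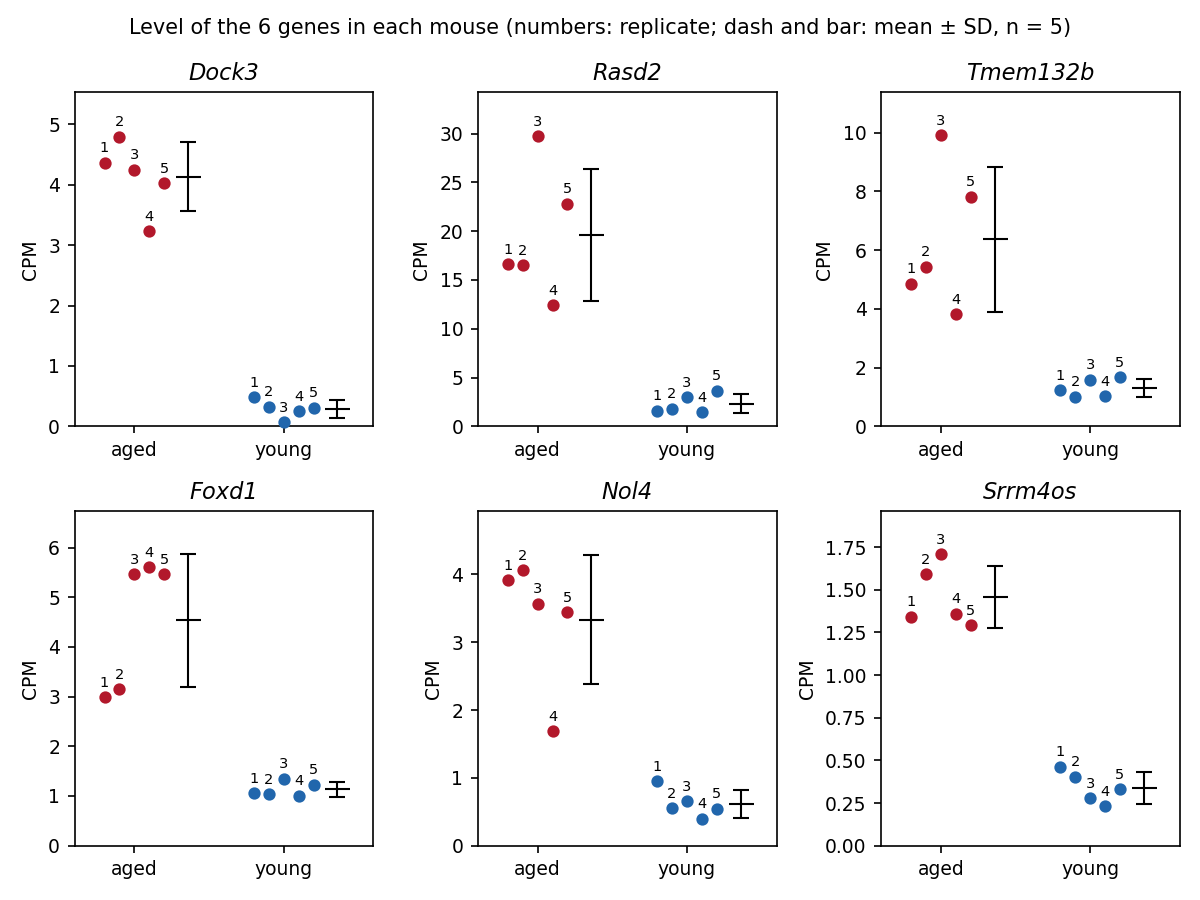
Level in CPM (vertical axis, from 0) of each of the 6 genes in 5 aged (left, red) and 5 young (right, blue) mice, where each numbered point is a mouse and the dash with its bar is the mean ± SD. The ages do not overlap for any gene, from 3.23 to 4.80 CPM in aged against 0.0693 to 0.487 CPM in young mice for Dock3, and aged mouse 4 is the lowest aged mouse for Dock3, Rasd2, Tmem132b and Nol4 but the highest for Foxd1.

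All 6 genes passed the filter on low counts, and 5 libraries at the minimum of 0.258 CPM by total counts were needed for this. In Dock3 and Srrm4os 4 of the 5 young libraries reached that minimum, so these genes passed only with their aged libraries. For all 6 genes every aged mouse was above every young mouse, as for 812 of all tested genes (3.68%), and the choice of the genes fixed this direction. The 6 were not the only genes of their kind. Of the 7822 tested genes with a young mean no higher than that of Rasd2, 86 were at least 4-fold higher in aged bone, which is 0.389% of all tested genes. They held 45 protein coding genes, 29 immunoglobulin gene segments, 7 long noncoding RNAs and 5 pseudogenes, and in 61 of the 86 the ages did not overlap. Closest to the limit on the inside stood Foxd1 with 4.0-fold and Acsm5 and 2310016G11Rik, both with 4.01-fold. Just outside it stood Gm14769 with 3.98-fold and 9330121K16Rik and Igkv10-94, both with 3.96-fold.

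The 6 genes did not share one order of mice. Dock3 and Nol4 had the same order in aged mice, from high to low 2, 1, 3, 5 and 4, and a different one in young mice. For Rasd2 and Tmem132b aged mice 3 and 5 came first and aged mouse 4 last, while young mice 5 and 3 came first. The root mean square difference of their centred log2 levels was 0.0821 in aged mice, the smallest of the 15 pairs of the 6 genes. The largest was 0.783, between Foxd1 and Nol4, the first at its highest and the second at its lowest in aged mouse 4. In young mice Rasd2 and Tmem132b differed by 0.275, the closest pair was Tmem132b and Foxd1 with 0.170, and the farthest was Dock3 and Rasd2 with 1.22, where Dock3 rests on 2 counts in young mouse 3.

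Rasd2 and Tmem132b had their highest aged level in the aged mouse with the most skeletal muscle markers and their lowest in the one with the fewest, while aged mouse 1, next to the highest by these markers, ranked in the middle for Rasd2 and next to last for Tmem132b. The summed markers, contractile and metabolic proteins of muscle fibres, stood from high to low in aged mice 3, 1, 5, 2 and 4 and in young mice 3, 5, 2, 1 and 4. The sum was 77083, 44096, 92668, 33513 and 61208 CPM in aged mice 1 to 5, against 27831, 37108, 58829, 19967 and 49505 CPM in young mice 1 to 5. Of the 14 tested muscle markers 0 were called by edgeR, with 4 higher at an unadjusted p below 0.05, 2 called by DESeq2 and 0 by limma-voom. All 14 had a log2 fold change above 0, from 0.02 (Mylpf) to 2.57 (Tnnt1). The median of these markers was 0.56, beside 0.01 over all tested genes. Per 10000 CPM of these markers, Rasd2 stood at 2.15, 3.75, 3.21, 3.71 and 3.73 in aged mice 1 to 5, against 0.572, 0.489, 0.513, 0.732 and 0.738 in young mice 1 to 5. That is 5.44-fold on the means, and the ages did not overlap. Tmem132b stood at 0.631 to 1.28 per 10000 marker CPM in aged mice, against 0.271 to 0.512 in young mice, which is 2.91-fold without overlap.

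On the same scale Dock3 was 8.07-fold, Nol4 3.16-fold and Srrm4os 2.65-fold higher in aged bone. Foxd1 was 2.60-fold higher, and here the ages overlapped, with 0.388 to 1.67 per 10000 marker CPM in aged mice against 0.230 to 0.502 in young mice. When edgeR was given the mean log2 muscle marker level as covariate, the log2 fold change was 2.62 for Rasd2, 1.87 for Tmem132b, 2.05 for Nol4, 3.76 for Dock3, 2.01 for Foxd1 and 2.02 for Srrm4os. The ratio to muscle markers was chosen after the data were seen.

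**Figure D2:**
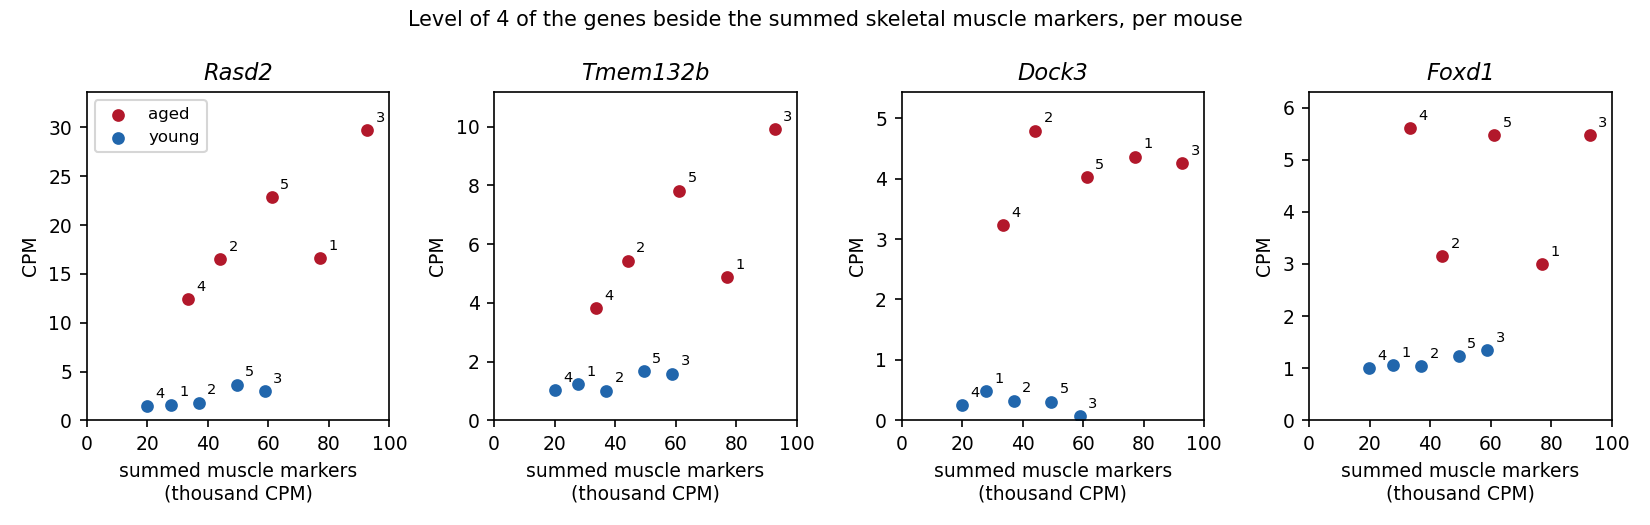
Level in CPM (vertical axes) of Rasd2, Tmem132b, Dock3 and Foxd1 against the summed level of skeletal muscle markers in units of 1000 CPM (horizontal axes), with 1 numbered point per aged (red) or young (blue) mouse. Rasd2 and Tmem132b are highest in aged mouse 3, the mouse with the most muscle markers, and each aged mouse stands above each young mouse, with 12.4 CPM of Rasd2 in aged mouse 4 at 33513 marker CPM against 3.02 CPM in young mouse 3 at 58829 marker CPM.

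Plasma cell markers, genes of antibody secretion, summed to 144 to 300.3 CPM in aged and 155 to 183 CPM in young libraries. Of 9 tested 2 were higher and 1 lower, beside 3.68% and 3.61% of all tested genes. With the mean log2 level of the plasma cell markers as a covariate the log2 fold changes of the 6 genes were 2.08 (Foxd1) to 3.83 (Dock3).

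The genes around the 6 genes had no part in their choice. Of the 6 tested genes nearest to or overlapping them, 0 were called by edgeR or limma-voom and 2 by DESeq2, with 3 at an unadjusted p under 0.05. Within 500 kb of the 6 genes lay 131 others, of which 75 were tested, 2 were higher (2.67%, beside 3.68% of all tested genes) and 1 was lower in aged bone (beside 3.61%, edgeR, 16 at an unadjusted p under 0.05). Their median log2 fold change was -0.01, beside 0.01 over all tested genes. By gene the medians within 500 kb were -0.13 (Rasd2) to 0.08 (Srrm4os). Within 200 kb they were -0.21 (Nol4, 1 tested gene) to 0.90 (Srrm4os, 3 tested genes, 0 called). Those 3 include Srrm4 and Hspb8, which lies 15856 bases from Srrm4os (log2 fold change 0.90, edgeR, adjusted p = 0.0818).

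Srrm4, on the strand opposite to Srrm4os, shares 68 exonic bases with it, which is 1.86% of the exons of Srrm4os in GENCODE vM21. It had 1.54, 1.01, 1.37, 0.656 and 0.506 CPM in aged mice 1 to 5, against 0.641, 0.630, 0.416, 0.313 and 0.472 CPM in young mice 1 to 5. Aged mouse 5 lay within the young range, and the log2 fold change of 1.02 (SE 0.33) did not pass edgeR's test (adjusted p = 0.0755). Over the 18 alternative fits its adjusted p was 0.0312 (DESeq2) to 0.318 (muscle marker covariate), and it was called by DESeq2 and without aged mouse 5 (adjusted p = 0.0416). The strand setting of the counting is not known here, so reads over the shared bases cannot be told apart. Srrm4os also lies almost wholly within the span of Srrm4 (116439275 to 116591817). Reads from unspliced Srrm4 could therefore be counted for Srrm4os outside the shared bases too, which was not tested. The noncoding RNA 4930524O07Rik overlaps one end of Dock3 on the other strand and shares 1082 exonic bases with it, 7.49% of the Dock3 exons. It stood at 0.417 ± 0.177 CPM in aged and 0.414 ± 0.182 CPM in young bone (SD, n = 5 each), with a log2 fold change of 0.00 (SE 0.37, adjusted p = 0.997).

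Aacs, which makes acetoacetyl-CoA from ketone bodies and lies 14364 bases from Tmem132b, had 25.1 ± 2.56 CPM in aged and 19.7 ± 2.02 CPM in young bone (SD, n = 5 each), a log2 fold change of 0.35 (edgeR, adjusted p = 0.0595). Mcm5, a subunit of the replication helicase 85505 bases from Rasd2, had a log2 fold change of -0.29 (adjusted p = 0.144). The noncoding RNA Gm9828 near Foxd1 had -0.32 (adjusted p = 0.367), and the chromatin gene Asxl3 near Nol4 had -0.21 (adjusted p = 0.721). Nol4 has 2 tested genes within 500 kb, so little can be read from its surroundings.

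Of the 3 called neighbours, Gm10382, an uncharacterised noncoding RNA 141219 bases from Tmem132b, was highest above young bone. It had 7.15 ± 3.02 CPM in aged and 3.24 ± 0.747 CPM in young bone (SD, n = 5 each, log2 fold change 1.14, SE 0.27, adjusted p = 0.0242). Tom1, an endosomal sorting gene 143823 bases from Rasd2, had 26.6 ± 1.55 CPM in aged and 21.1 ± 2.01 CPM in young bone (log2 fold change 0.33, SE 0.10, adjusted p = 0.0497). Hyal2, a hyaluronidase gene 336036 bases from Dock3, had 7.77 ± 1.0 CPM in aged and 10.7 ± 1.45 CPM in young bone (log2 fold change -0.46, SE 0.13, adjusted p = 0.0476). The calls of Tom1 and Hyal2 were each lost in 14 of 18 alternative fits, and that of Gm10382 in 4.

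**Figure D3:**
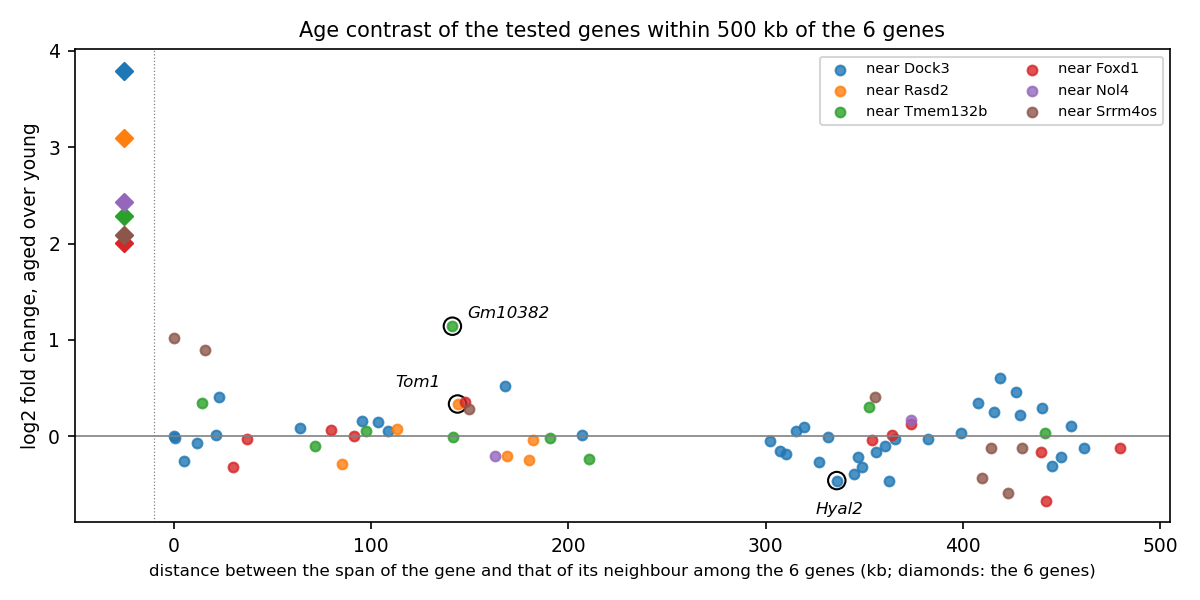
Log2 fold change, aged over young (vertical axis), of the 75 tested genes within 500 kb of the 6 genes against their distance in kb (horizontal axis), coloured by the gene they lie near, with the 6 genes as diamonds at the left and called neighbours ringed. The diamonds lie at 2.00 to 3.79, as the choice of genes at least 4-fold higher required, so their gap to the neighbours is not a result. The neighbours, which had no part in the choice, lie between -0.67 and 1.14 with a median of -0.01.

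Of 91 relatives and partners of the 6 genes, 72 were tested, 2 were higher and 4 lower in aged bone, beside 3.68% and 3.61% of all tested genes, with a median log2 fold change of 0.06. Among the DOCK exchange factors other than Dock3, 0 of 10 were called by edgeR, with 4 higher at an unadjusted p below 0.05 and 0 called by DESeq2 or by limma-voom. The median of these 10 was 0.21, and Dock4, which acts on Rac with Dock3 as its closest relative, had 43.9 ± 5.84 CPM in aged and 43.0 ± 4.52 CPM in young bone (SD, n = 5 each, adjusted p = 0.897). Per kb of exon, Dock3 was the lowest of the 11 DOCK genes at both ages, with 0.286 CPM per kb in aged and 0.0200 CPM per kb in young bone, against 32.2 CPM per kb in aged and 25.8 CPM per kb in young bone for Dock8, the highest and a gene of immune cells. Of 23 Rac, ELMO and WAVE genes through which DOCK proteins work, 0 were higher and 1 was lower, beside 3.68% and 3.61% of all tested genes. The lower gene was the Rac effector kinase Pak1, with 22.5 ± 2.15 CPM in aged and 30.7 ± 3.81 CPM in young bone (SD, n = 5 each, log2 fold change -0.44, adjusted p = 0.0267). DESeq2 called 2 of the 23 and limma-voom 1. Wasf1 fell just short of edgeR's limit (log2 fold change -0.71, adjusted p = 0.0508), with all 5 aged mice below all young mice.

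Rasd2 held rank 1 of 11 Ras-like genes of its group in aged bone and rank 8 in young bone, by CPM per kb. In young bone the growth inhibitor Rerg led the group with 3.68 CPM per kb. The closest paralog Rasd1, a GTPase induced by dexamethasone, had 1.30 ± 0.608 CPM in aged and 1.64 ± 0.245 CPM in young bone (SD, n = 5 each, adjusted p = 0.451). Rasl10a was the 1 called gene of 8 tested and was higher in aged bone, beside 3.68% of all tested genes. It had 5.12, 5.75, 7.48, 8.67 and 4.07 CPM in aged mice 1 to 5, against 4.05, 2.59, 2.60, 2.69 and 3.21 CPM in young mice 1 to 5. Aged mouse 5 stood just above young mouse 1, and the log2 fold change was 1.03 (SE 0.21, adjusted p = 0.0110).

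In the TMEM132 family 2 of the 3 tested relatives of Tmem132b were lower in aged bone, beside 3.61% of all tested genes. Tmem132a, a membrane protein that binds the chaperone BiP, had 5.68, 6.03, 5.88, 7.52 and 7.34 CPM in aged mice 1 to 5, against 12.7, 8.03, 14.9, 8.20 and 11.5 CPM in young mice 1 to 5. All aged mice were below all young mice (log2 fold change -0.77, SE 0.18, adjusted p = 0.0198). Tmem132e, known from hearing, had 4.18 ± 0.765 CPM in aged and 6.63 ± 1.13 CPM in young bone (SD, n = 5 each, log2 fold change -0.66, SE 0.16, adjusted p = 0.0266), also without overlap. Tmem132c had 0.504 ± 0.258 CPM in aged and 0.490 ± 0.186 CPM in young bone (SD, n = 5 each, adjusted p = 0.990), and Tmem132d was too low to be tested. Tmem132b held rank 3 of the 5 genes at both ages per kb.

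Among 24 tested forkhead genes 1 was higher and 1 lower, beside 3.68% and 3.61% of all tested genes. Foxd4 had 4.61, 6.11, 6.30, 8.13 and 4.71 CPM in aged mice 1 to 5, against 2.80, 2.95, 2.77, 3.40 and 3.04 CPM in young mice 1 to 5. Like Foxd1 it was highest in aged mouse 4, and the ages did not overlap (log2 fold change 0.99, SE 0.17, adjusted p = 0.00407). Foxo1, a regulator of insulin responses and stress, was lower, with 29.2 ± 2.85 CPM in aged and 37.5 ± 2.17 CPM in young bone (SD, n = 5 each, log2 fold change -0.36, SE 0.09, adjusted p = 0.0353). Foxd2, the closest by name, did not pass (log2 fold change 0.26, SE 0.22, adjusted p = 0.487). By CPM per kb Foxd1 held rank 20 of 40 forkhead genes in aged and rank 23 in young bone. Of 4 tested relatives of Nol4 and Srrm4 edgeR called 0, with 1 higher at an unadjusted p under 0.05, which was Srrm4, 1 by DESeq2 and 0 by limma-voom, and Nol4l had a log2 fold change of 0.31 (SE 0.15, adjusted p = 0.205).

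**Figure D4:**
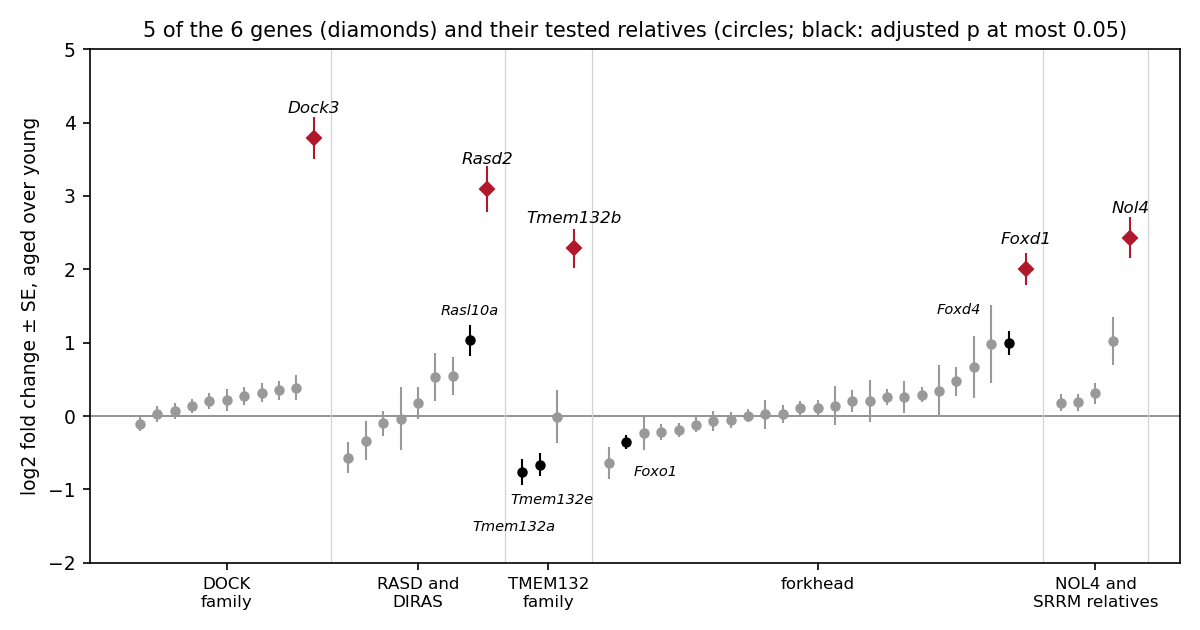
Log2 fold change ± SE, aged over young (vertical axis), of 5 of the 6 genes (red diamonds) and of the tested genes of their families (circles, black where the adjusted p was at most 0.05), sorted within each family (horizontal axis). The diamonds lie at 2.00 to 3.79, as the choice of genes at least 4-fold higher required. Rasl10a at 1.03 and Foxd4 at 0.99 are the called relatives above 0, and Tmem132a at -0.77 lies farthest below.

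Other neural genes were read as lists, written with earlier results of these data known, so their counts are a description. Of 76 neural and splicing genes 54 were tested. By edgeR 3 were higher and 1 was lower, beside 3.68% and 3.61% of all tested genes. At an unadjusted p under 0.05 stood 20, of which 16 were higher and 4 lower. DESeq2, which called 1545 higher and 1283 lower among all 22088 tested genes, called 10 of the 54. limma-voom called 4, and the median log2 fold change was 0.09. The count at an unadjusted p has no share over all tested genes beside it. The repressor REST silences neuronal genes in other tissues. Rest itself had 44.2 ± 2.78 CPM in aged and 48.8 ± 4.56 CPM in young bone (SD, n = 5 each, log2 fold change -0.14, adjusted p = 0.366). Of 18 tested genes of REST and its partners 0 were called by edgeR, DESeq2 or limma-voom, with 3 at an unadjusted p under 0.05, and the smallest p belonged to the histone reader Phf21a (log2 fold change 0.29, adjusted p = 0.104).

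Among 16 tested textbook targets of REST, edgeR called 3 higher and 1 lower, beside 3.68% and 3.61% of all tested genes. This list too was written with earlier results of these data known, so the counts are no independent test. At an unadjusted p under 0.05 stood 9, of which 8 were higher and 1 lower. DESeq2, with 1545 higher and 1283 lower among all 22088 tested genes, called 5 of the 16. limma-voom called 4, and the median log2 fold change was 0.33. Here too the count at an unadjusted p has no share over all tested genes beside it. The synaptic vesicle protein gene Syp had 1.40, 1.55, 2.35, 1.83 and 1.75 CPM in aged mice 1 to 5, against 1.0, 0.655, 0.589, 0.71 and 0.590 CPM in young mice 1 to 5. The ages did not overlap, and the log2 fold change was 1.31 (SE 0.22, adjusted p = 0.00386). The adhesion molecule gene L1cam had a log2 fold change of 0.61 (SE 0.11, adjusted p = 0.00665), and the cadherin gene Celsr3, named after its values were seen, 0.58 (SE 0.13, adjusted p = 0.0154). The glutamate receptor subunit gene Gria2 was lower, with 0.121 ± 0.029 CPM in aged and 0.645 ± 0.106 CPM in young bone (SD, n = 5 each, log2 fold change -2.41, SE 0.30, adjusted p = 5.25e-04). Its aged mean lay under the filter's minimum of 0.258 CPM by total counts, so the aged level is near the floor. Of 17 tested neural splicing regulators 0 were called by edgeR or limma-voom and 5 by DESeq2, with 7 at an unadjusted p under 0.05. Celf3, the one with the smallest p, had a log2 fold change of 0.38 (SE 0.11, adjusted p = 0.0562).

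The profile most like the mean of the 6 genes over the 10 libraries, by root mean square difference of centred log2 CPM, was that of Fam241b (0.37), followed by the host gene Snhg11 (0.37), the pseudogene Gm10499 (0.39), the apolipoprotein gene Apol11a (0.41) and the growth factor binding protein gene Fgfbp3 (0.45). The 6 genes themselves lay at 0.33 (Tmem132b) to 0.90 (Dock3) from their mean. Levels were centred over all 10 libraries, so this measure includes the difference between ages for which the 6 genes were chosen. It does not show that levels follow each other from mouse to mouse. Snhg11 had 10.5 ± 1.97 CPM in aged and 1.56 ± 0.340 CPM in young bone, and Fam241b 0.793 ± 0.190 CPM in aged and 0.152 ± 0.0184 CPM in young bone (SD, n = 5 each). With a prior count of 2 in place of 0.5, 4 of the 5 genes stayed among the nearest.

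**Figure D5:**
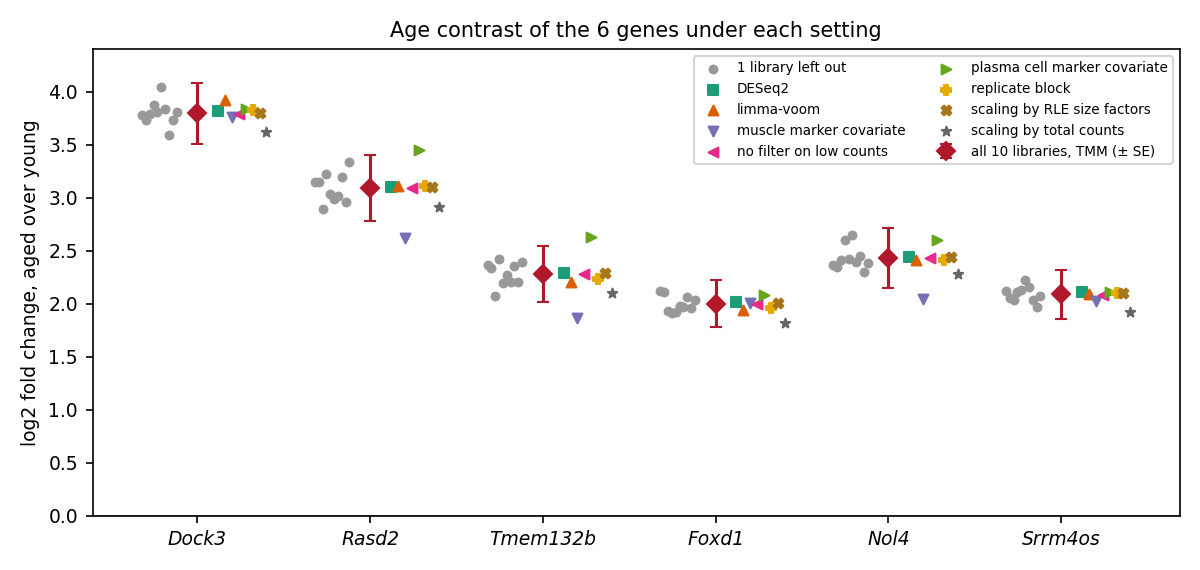
Log2 fold change, aged over young (vertical axis), of the 6 genes (horizontal axis) with all libraries (red diamond ± SE), with 1 library left out (grey) and under each other fit (coloured symbols). Among these fits the lowest value for Rasd2 is 2.62 and for Tmem132b 1.87, both with muscle markers as a covariate. For Dock3 it is 3.59, without young mouse 3. The ratio to muscle markers, which gave 2.44 for Rasd2 and 1.54 for Tmem132b, is not shown.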

How the data were processed

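RNA of 10 femurs was sequenced, 1 library per mouse. The count table was deposited as whole reads per gene. Per the study's methods, the authors trimmed reads with Cutadapt, mapped them with STAR to GRCm38.p6 and obtained counts with featureCounts. The labels name hg38, while the identifiers are mouse Ensembl identifiers. Annotation release and strand setting of the counting are not given in the sources. Of the per-sample columns 0 were left out.

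The fit used edgeR 4.0.16 in R 4.3.3, with a filter on low counts (minimum 10, total 15), TMM scaling and a robust quasi-likelihood test over 22088 genes, adjusted by Benjamini-Hochberg and called at 0.05. A standard error is the log2 fold change over the root of F. The replicate number only names a mouse, and p-values measure the spread between mice. Steps were tested on simulated data. Alternatives were other scalings, no filter, DESeq2 1.42.0, voom of limma 3.58.1, the replicate number as a block, muscle or plasma cell marker covariates, other windows, another prior count, and leaving out each library. Tables came from pandas 2.3.3 and numpy 2.4.6, figures from matplotlib 3.10.9, all under Python 3.11.15. Exon overlaps come from GENCODE vM21, and sequences from RefSeq (GRCm38.p6), which was used for 4 of the 6 genes.

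The 6 genes and all lists were chosen with earlier results of these data known. Named genes are the 6, the gene nearest to or overlapping each, called neighbours, called relatives and closest paralogs, up to 3 of smallest p in each other list, the 5 nearest profiles and the genes at the 4-fold limit.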

Additional observations from a re-analysis of the deposited data

Results flagged for a closer look

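Chance sets 1 value apart in about 1 in 20 groups of this size, and 38 groups were looked at. Nol4 in aged mouse 4 had 1.69 CPM, apart from 3.44 to 4.06 CPM in the other aged mice. The glutamate receptor gene Gria2 in young mouse 1 had 0.462 CPM, apart from 0.660 to 0.731 CPM in the other young mice and still above every aged mouse. The kinase gene Pak1 in aged mouse 5 had 26.3 CPM, apart from 20.8 to 21.9 CPM in the other aged mice and above the lowest young mouse.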

How the results depend on the processing

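In the 18 alternative fits the log2 fold changes of the 6 genes lay between 1.82 (Foxd1) and 4.05 (Dock3). These fits reuse the libraries by which the genes were chosen, which fixed the direction, so they describe only the size of the change. Leaving out 1 library gave 3.59 to 4.05 for Dock3, 2.90 to 3.33 for Rasd2, 2.08 to 2.42 for Tmem132b, 1.91 to 2.12 for Foxd1, 2.30 to 2.64 for Nol4 and 1.96 to 2.23 for Srrm4os. Per CPM of muscle markers, on the log2 scale, Rasd2 stood at 2.44, Tmem132b at 1.54, Foxd1 at 1.38, Nol4 at 1.66 and Srrm4os at 1.41. Scaling by total counts moved the median of all tested genes by -0.17. It called 285 genes higher, 1 neighbour and 2 neural or splicing genes, against 812, 3 and 4. DESeq2 called 1545 higher, 1283 lower, 8 neighbours and 10 neural genes. The plasma cell covariate gave 1232 higher and 9 neural genes, the muscle covariate 1 neighbour and 11 relatives (6 without it), limma-voom 1 neighbour, and a window of 1000 kb 5 neighbours. Without 1 library, 300 to 856 genes were called higher and 386 to 830 lower, with 0 to 4 neighbours, 3 to 7 relatives and 4 to 6 neural genes. The fewest came without young mouse 2 (300 higher, 0 neighbours, 3 relatives), without young mouse 4 (366 higher, 0 neighbours), without aged mouse 3 (470 higher, 0 neighbours, 3 relatives) and without young mouse 3 (1 neighbour, 3 relatives). The causes were not tested.

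The calls of Foxo1, Pak1 and Tmem132e were lost in 12, 8 and 4 of the 18 fits and that of L1cam in 1 (total counts), while those of Rasl10a, Tmem132a, Foxd4, Syp and Gria2 held in 18. With the replicate number as a block 957 genes were higher and 675 lower, with 2 neighbours, 4 relatives and 6 neural genes called, and same-numbered mice correlated at -0.154 to 0.169, so the numbers do not pair the mice, and 0 of 5 aged mice correlated best with the young mouse of their number. The depth limits Dock3 and Srrm4os in young bone, where they had 2 to 19 and 8 to 18 counts. It also limits Gria2 in aged bone.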
